A study of Caenorhabditis elegans with 8 samples.

Results

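The expression table of this Caenorhabditis elegans study carries, beside the named genes of the worm, 2643 entries whose identifiers begin with RIT. None of these identifiers was found in the current gene annotation (WBcel235), and the sources used here do not state what the letters stand for, where the loci lie or what sequence they have. The RIT loci described here are the 232 of the 2643 with at least 10 RPKM (a read number scaled to transcript length and library size) in both libraries of at least 1 of the 4 sample groups. The whole table holds 21774 entries, and 7424 of the 19131 without a RIT name pass the same level. These loci, and the group in which each is called highest, were chosen by the RPKM values themselves, so those levels are a description and not a test.

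Polyadenylated RNA was sequenced from both gametes and from the embryo after fertilization (1-cell) and after the first cleavage (2-cell), in 2 libraries per group. Every sample is labelled as strain TX189 (OMA-1::GFP), grown at 24 degrees. The protocol text instead names wild-type N2 hermaphrodites, cut open, as the source of hand-picked oocytes and males of a fog-2(q71) background as the source of sperm, which was filtered and then activated with Pronase. It describes flow cytometric sorting for the 1-cell embryos, and the collection of the 2-cell embryos is not described there. Strain and collection therefore cannot be told apart from stage. In these bulk samples a change in the make-up of a sample and a change of RNA per cell cannot be told apart either, and nothing says whether the libraries of a group came from separate cultures, so p-values measure the spread between libraries, which may be technical.

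A worm oocyte is loaded with maternal transcripts, and the fertilized egg runs on that store through its first divisions while its own genome is largely silent. Sperm is produced from a separate transcription programme in the male germ line, is itself thought to transcribe little once formed, and delivers some RNA to the egg. Polyadenylated transcripts outside the gene annotation can be unannotated protein-coding genes, extensions of known genes, long non-coding RNAs, pseudogenes or repeats, and levels alone do not say which of these a locus is.

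The known genes set down as markers followed the labels with exceptions in the sperm libraries and among the neuron markers. The summed level of 9 sperm markers was 17963 and 22889 RPKM in sperm, 3.26 and 8.41 in oocytes and 80.1 to 120.2 in embryos. The 9 oocyte markers summed to 20696 and 21613 RPKM in oocytes, 1616 to 3521 in embryos and 215 and 928 in sperm. The 4 body wall muscle markers (myo-3, unc-54, unc-15 and lev-11) summed to 640 and 930.3 RPKM in sperm against 0.437 to 3.40 elsewhere, and the adult collagens col-140 and col-119 stood at 165 and 465 and at 292 and 559.9 RPKM there. The other 3 of the 5 cuticle markers were low in sperm, with 0.273 and 0.150 RPKM for rol-6, 0.145 and 0.0237 for dpy-7 and 2.72 and 0.655 for sqt-3. In embryos sqt-3, a collagen gene of later embryos and larvae, stood at 26.0 RPKM in 1-cell embryo library 1 and 47.4 in 2-cell embryo library 1, and at 1.84 and 0.626 in the libraries numbered 2. The 3 neuron markers found summed to 487 and 408 RPKM in oocytes, 393 to 636 in embryos and 103 and 125 in sperm. Most of this signal was that of unc-119 and snb-1. The 5 intestine markers summed to 60.5 and 16.1 RPKM in sperm against 0.475 to 3.64 elsewhere. The 4 yolk genes summed to 29.3 and 1.88 RPKM in sperm and at most 3.40 elsewhere. The 4 somatic gonad markers summed to at most 3.67 RPKM in any library.

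Sperm held the largest share of the expressed RIT loci. The mean was highest in sperm for 115 of the 232 (49.6%), in 1-cell embryos for 54 (23.3%), in 2-cell embryos for 39 (16.8%) and in oocytes for 24 (10.3%). Among the 7424 other entries that passed the same level these shares were 31.2%, 25.4%, 22.7% and 20.7%. RIT loci also passed in fewer groups. A single group carried the passing level for 133 RIT loci (57.3%) and for 28.5% of the other entries, while 14 RIT loci (6.03%) and 45.9% of the other entries passed in all 4 groups. RIT loci passed less often in the first place, with 8.78% of all RIT entries against 38.8% of the others. Their summed RPKM made up 0.669% and 0.776% of the oocyte libraries, 0.841% to 1.87% of the embryo libraries and 1.25% and 1.75% of the sperm libraries.

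**Figure D1:**
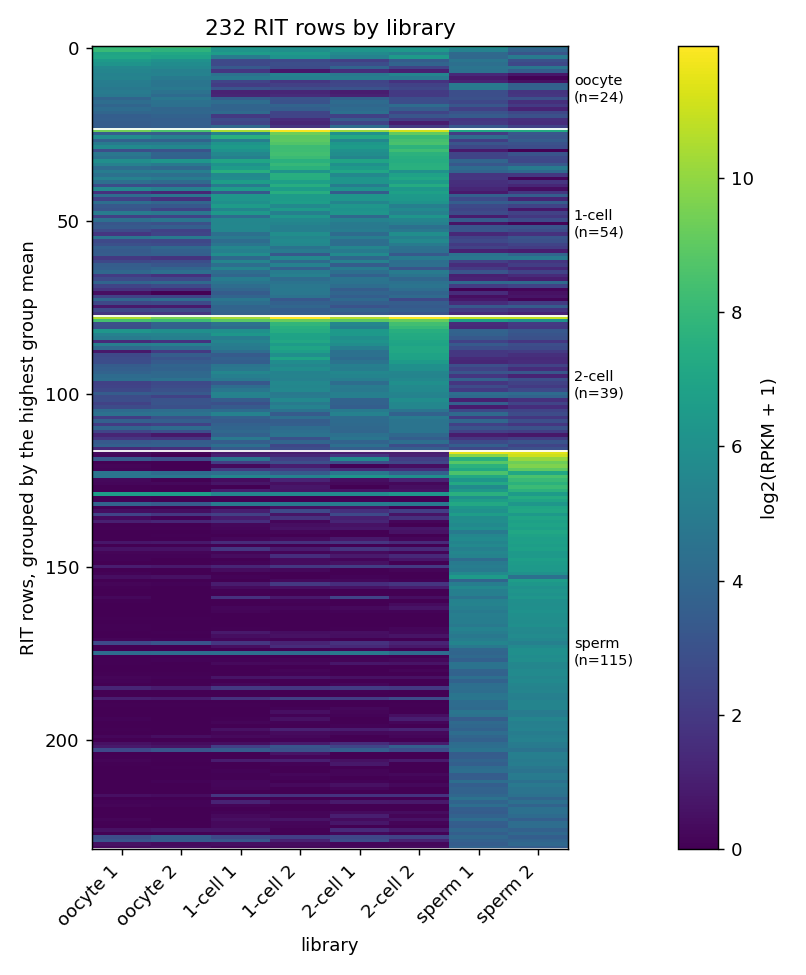
Each line of the map is 1 of the 232 expressed RIT loci and each column 1 library, with colour giving log2(RPKM + 1); white lines separate the loci by the group with the highest mean. The 115 sperm loci are dark in the other 6 libraries with few exceptions, while the loci of the 2 embryo stages are bright in both stages. Their median level is higher in the library numbered 2 of each embryo stage, which does not hold for every locus.

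Of the 115 loci that were highest in sperm, 110 passed the 10 RPKM level in sperm alone, and 79 had less than 1 RPKM in each of the 6 other libraries. The sperm mean was at least 10 times the next group's for 103 loci and at least 100 times for 66. Their sperm means ran from 11.8 to 2853 RPKM with a median of 38.3, and 18 reached 100 RPKM. Outside sperm most of these loci were thus close to the bottom of the scale. The loci were grouped by their high mean in sperm, so the counts are a description. The same counts were not made for the other entries, so they are not read as particular to RIT loci.

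RIT4P.1139 was the most abundant of the 232 loci in sperm. It had 2978 and 2727 RPKM in the sperm libraries, 0.287 and 0.104 in oocytes, 0.733 and 0.985 at the 1-cell stage and 1.04 and 0.988 in 2-cell embryos. The sperm libraries lay more than 3 orders of magnitude above the other 6, which all stood near or below 1 RPKM. By the distance of log2(RPKM + 1) over the 8 libraries, the named genes nearest to it were ssq-2 (distance 0.46; 2981 and 2863 RPKM in sperm) and ssq-1 (0.63; 2722 and 3193 RPKM in sperm), members of a sperm-specific gene family, and the major sperm protein gene msp-65 (1.06).

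RIT4P.910 had 907 and 2126 RPKM in sperm, 0.212 and 0.00670 in oocytes, 1.17 and 1.51 at the 1-cell stage and 2.82 and 1.23 at the 2-cell stage. RIT1M.1111 had 450.1 and 632 RPKM in sperm, 0.0619 and 0.0222 in oocytes, 3.57 and 6.41 at the 1-cell stage and 6.24 and 4.84 in 2-cell embryos. RIT4M.1684 had 145 and 503 RPKM in sperm, 0.0739 and 0.0284 in oocytes, 2.91 and 3.32 at the 1-cell stage and 1.68 and 1.97 in 2-cell embryos. In these loci every embryo library lay above both oocyte libraries and far below both sperm libraries. RIT2M.1165, with 205 and 798 RPKM in sperm, had 0.136 and 0.000638 in oocytes, 0.231 and 1.02 at the 1-cell stage and 0.0676 and 0.397 at the 2-cell stage, so that its oocyte and 2-cell libraries overlapped.

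Another of the 6 most abundant sperm loci, RIT5M.1807, had a different pattern. It had 189 and 1071 RPKM in sperm, 9.11 and 5.90 in oocytes, 22.4 and 4.20 at the 1-cell stage and 50.3 and 3.63 in 2-cell embryos. Its embryo values were high in the libraries numbered 1 and low in those numbered 2, as were those of sqt-3 given above, and its sperm values differed 5.65-fold. The 4 muscle markers and 2 of the 5 cuticle markers were also high in the sperm group as a whole, and their part in the levels of the sperm loci was not tested.

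**Figure D2:**
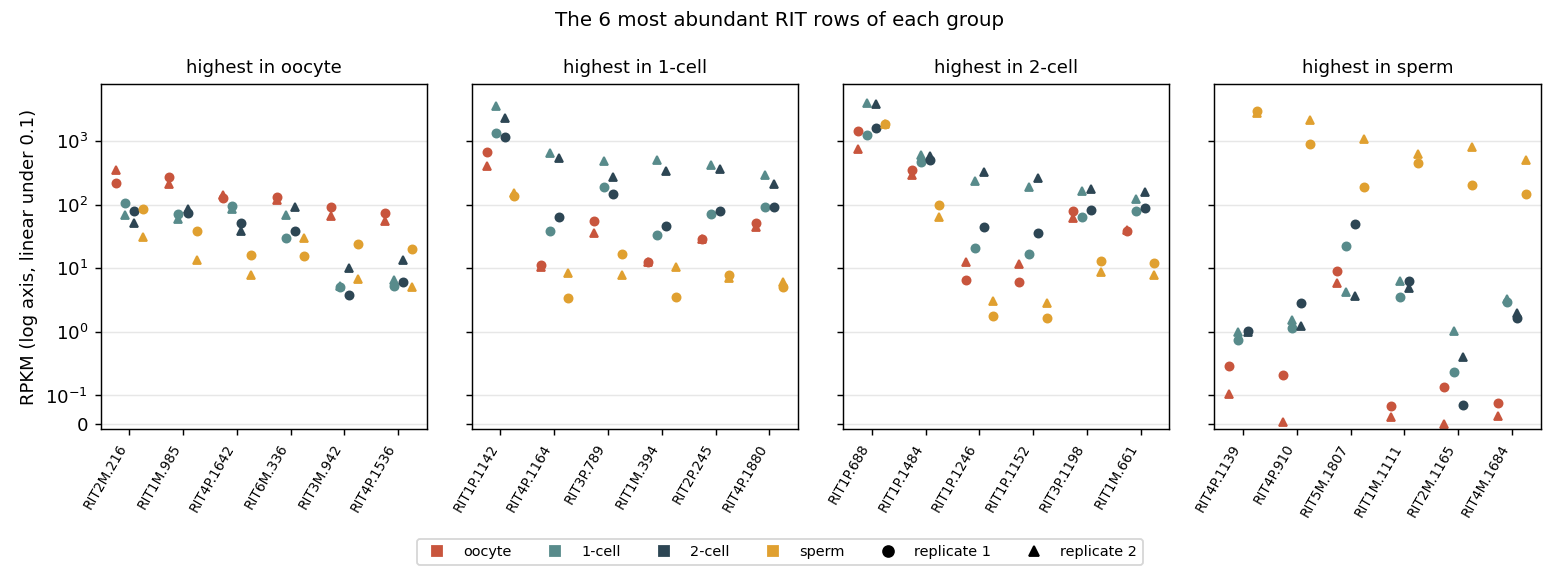
RPKM in each of the 8 libraries (log axis, linear under 0.1) of the 6 RIT loci with the highest mean in each group; colours give the group and symbols the replicate. Sperm loci have their sperm libraries at 145 to 2978 RPKM with the oocyte libraries under 10, whereas loci highest in oocytes keep measurable levels in all groups.

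Setting 1-cell embryos against oocytes addresses which RNAs change around fertilization. The 110 loci that passed in sperm alone were partly chosen by their low values in these groups, so their differences are a description. Differences are of log2(RPKM + 1), tested with limma over 11935 entries, and a call needs an adjusted p under 0.05 and a difference of at least 1. In this comparison 23% of all tested entries were called, 17% higher and 5.92% lower in 1-cell embryos. Of the 110 sperm loci 83, and of the 1814 other entries that passed in sperm alone 1093, had under 1 RPKM in both oocyte and both 1-cell libraries, where the difference on this scale cannot reach 1. The following shares are therefore not read against those of all entries. Among the 110 sperm loci, 4 were called higher and 1 lower (4.55%), and among those 1814 other entries 125 were higher and 19 lower (7.94%). The median difference was 0.10 for the 110 loci, 0.27 for those other entries and 0.35 for all tested. Chosen after their values were seen, the 4 higher loci were RIT1M.1111 (log2 difference 2.48, SE 0.38, limma adjusted p = 0.00834), RIT4M.1684 (1.97, adjusted p = 0.0372), RIT4P.1362 (1.94, adjusted p = 0.0293) and RIT4M.1150 (1.32, adjusted p = 0.0192). The lower one, RIT3M.906, had 5.27 and 7.67 RPKM in oocytes and 2.71 and 1.25 in 1-cell embryos. With a pseudocount of 5 all 5 of these calls ended, and each ended without either oocyte library.

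Counted without a test, both 1-cell libraries lay above both oocyte libraries in 49 of the 110 sperm loci and below them in 23. Of all tested entries 53.3% lay above and 22.1% below. None of the 110 was at 0 in an oocyte library, while 17 were at 0 in both 1-cell libraries. Those 17 count as below whatever their oocyte level, so the counts are not read against the shares of all entries. At least 1 RPKM in both 1-cell libraries was reached by 15 of the 110, in both 2-cell libraries by 18 and in both oocyte libraries by 7. The mean in 1-cell embryos had a median of 0.347% of that in sperm, with quartiles of 0.0924% and 1.46%, and reached 36.0% in RIT4M.404 (9.50 and 6.71 RPKM at the 1-cell stage, 22.3 and 22.8 in sperm, 5.26 and 7.81 in oocytes). The same median was 0.427% for the 1814 other entries. Among 9 known sperm genes it ran from 0.0358% for spe-9, a sperm gene needed for fertilization, to 21.6% for the germline sex determination gene fog-3, with 0.0779% for msp-142, 0.446% for msd-4 and 2.07% for ssp-16 between them. For RIT4P.1139 the share was 0.0301%, so the most abundant sperm locus was among those with the least signal in embryos for its level.

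**Figure D3:**
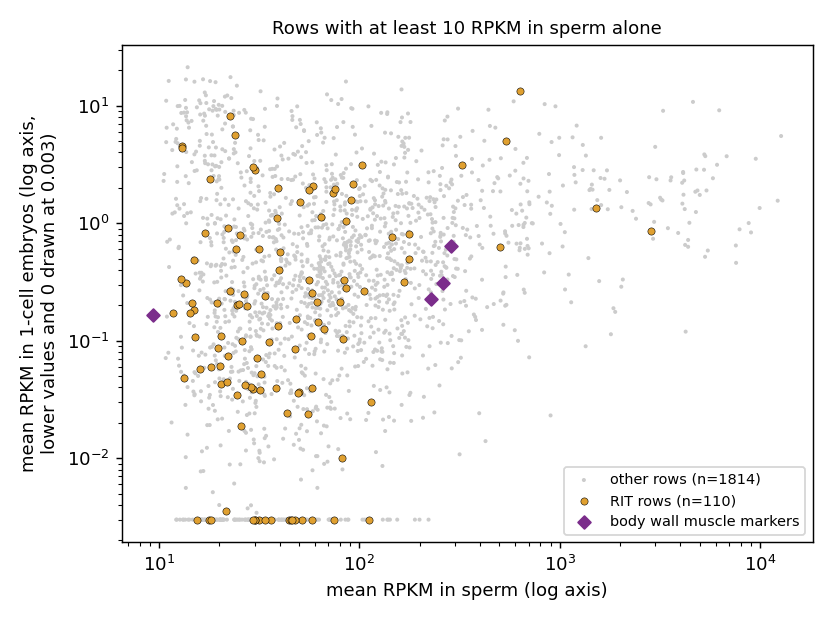
Mean RPKM in sperm (x) against mean RPKM in 1-cell embryos (y), both on log axes, for the 110 RIT loci (orange) and the 1814 other entries (grey) with at least 10 RPKM in sperm alone, with 4 body wall muscle markers (diamonds), 1 of which lies under that level; values under 0.003 are drawn there. The RIT loci spread over the same area as the other entries, with 17 at 0 in both 1-cell libraries.

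Most loci that were highest at an embryo stage were present at both stages. Of the 232 loci, 90 passed in both 1-cell and 2-cell embryos, 41 of these without passing in oocytes, while 2 passed in 1-cell embryos alone and 7 in 2-cell embryos alone. For the loci highest in 1-cell embryos the mean there was a median of 1.25 times the next group's, and for those highest in 2-cell embryos 1.22 times. Both libraries of the highest group lay above the other 6 in 11 of the 54 and 5 of the 39. In the remaining loci at least 1 library outside the highest group reached into its range. The same count was not made for the other entries, so it is not read as particular to RIT loci.

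RIT1P.1142 was the most abundant of the loci highest in 1-cell embryos. It had 667 and 399 RPKM in oocytes, 1341 and 3599 at the 1-cell stage, 1163 and 2287 at the 2-cell stage and 137 and 151 in sperm. Every embryo library lay above every oocyte library and every oocyte library above both sperm libraries. The named genes nearest to it were rbx-1, a subunit of cullin ubiquitin ligases (distance 1.34), snr-5, a spliceosomal Sm protein gene (1.35), and pbs-4, a proteasome subunit gene (1.42).

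RIT3P.789 had 54.6 and 35.5 RPKM in oocytes, 187 and 484 at the 1-cell stage, 146 and 269 at the 2-cell stage and 16.8 and 7.88 in sperm, with the same order of groups and no overlap between embryos and oocytes. RIT4P.1880 had 51.9 and 44.8 RPKM in oocytes, 92.1 and 297 at the 1-cell stage, 93.5 and 211 at the 2-cell stage and 5.02 and 6.05 in sperm, again in that order.

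A further 3 abundant embryo loci differed more between library numbers than between stages. RIT4P.1164 had 11.1 and 10.4 RPKM in oocytes, 38.0 and 649.6 at the 1-cell stage, 64.6 and 550.0 at the 2-cell stage and 3.42 and 8.50 in sperm. RIT1M.394 had 12.4 RPKM in both oocyte libraries, 33.8 and 500.0 at the 1-cell stage, 45.8 and 337 at the 2-cell stage and 3.51 and 10.3 in sperm. RIT2P.245 had 29.1 and 28.7 RPKM in oocytes, 71.5 and 423 at the 1-cell stage, 79.3 and 368 at the 2-cell stage and 7.92 and 6.99 in sperm. In each, all 4 embryo libraries exceeded both oocyte libraries, and the embryo libraries numbered 2 exceeded those numbered 1 several-fold.

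Of the loci highest in 2-cell embryos, RIT1P.688 was the most abundant of all 232 over the 4 groups. It had 1419 and 757 RPKM in oocytes, 1267 and 3997 at the 1-cell stage, 1596 and 3814 at the 2-cell stage and 1859 and 1872 in sperm, and alone held 17.6% to 26.9% of the summed RPKM of all 232 loci in the oocyte libraries. Its oocyte libraries lay below both 2-cell and both sperm libraries, and the other pairs of groups overlapped. The nearest named genes were tct-1, the translationally controlled tumour protein gene (distance 2.50), the elongation factor gene eef-1B.1 (3.07) and the ribosomal protein gene rps-23 (3.09), each at a larger distance than the neighbours of the other 3 loci with the highest mean of their group.

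RIT1P.1484 had 350.2 and 296 RPKM in oocytes, 474 and 600.4 at the 1-cell stage, 499.8 and 578 at the 2-cell stage and 100.3 and 64.7 in sperm. All embryo libraries lay above both oocyte libraries, and the 2 embryo stages overlapped. Its ratio to the proteasome subunit gene pas-3 (Y110A7A.14) was 0.975 with an SD of 0.06 log2 over the 8 libraries, the most constant ratio of any RIT locus to another entry.

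Further 2-cell loci came as a pair. RIT1P.1246 had 6.62 and 12.7 RPKM in oocytes, 20.8 and 234 at the 1-cell stage, 44.0 and 326 at the 2-cell stage and 1.76 and 3.11 in sperm. RIT1P.1152 had 6.14 and 11.5, 16.6 and 186, 35.3 and 259.9, and 1.64 and 2.86 RPKM in the same order, a near-constant 0.858 of the first (SD 0.11 log2). Such a pair was also formed by RIT3P.597 and RIT3P.601 (ratio 0.856, SD 0.09 log2) and by RIT4P.190 and RIT4P.220 (0.943, SD 0.17 log2). Loci with unlike identifiers formed pairs as well, RIT2P.1850 with RIT5M.1489 (0.829, SD 0.18 log2) and RIT1P.1383 with RIT4P.1880 (0.501, SD 0.19 log2). Constant ratios were not more common among RIT loci than elsewhere: the most constant ratio of a locus to any other entry had an SD under 0.1 log2 in 5 of the 181 RIT loci above 0 in all libraries (2.76%) and in 4.97% of 7058 other entries. That SD was under 0.2 log2 in 56 of the 181 RIT loci (30.9%) and in 59.7% of the other entries. Whether members of a pair share sequence or reads was not analysed here.

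Over all 232 loci, 49 were called higher and 12 lower in 1-cell embryos than in oocytes (26.3%, against 23% of all tested entries). The choice of loci by level in any group bears on this count, so the 50 loci that passed in both oocytes and 1-cell embryos are given as well: 9 were higher and 1 lower (20%), against 1093 higher and 351 lower of 4481 other entries passing in both (32.2%). The 9 higher loci included RIT1P.1142 (log2 difference 2.09, SE 0.56, limma adjusted p = 0.0329) and RIT3P.789 (2.74, SE 0.58, limma adjusted p = 0.0172). RIT3P.171 went from 19.6 and 16.7 to 101 and 108 RPKM (2.47, limma adjusted p = 0.00664), and RIT5P.1534 from 17.9 and 23.4 to 75.9 and 93.4 RPKM (1.99, limma adjusted p = 0.00898). The abundant loci RIT4P.1164 (log2 difference 3.76, limma adjusted p = 0.0810), RIT1M.394 (3.30, adjusted p = 0.102) and RIT2P.245 (2.55, adjusted p = 0.0770) did not pass, as their 1-cell libraries lay far apart.

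Among the loci that did not pass in oocytes, the largest differences belonged to RIT2P.928, RIT4M.1450 and RIT6P.1450. The choice of such loci by their embryo levels favours this direction, so their differences are a description. All 41 loci that passed in both embryo stages but not in oocytes had a difference above 0. So did all 505 other entries that passed in this way. RIT2P.928 had 1.71 and 2.37 RPKM in oocytes, 40.7 and 141.9 at the 1-cell stage, 68.7 and 130.2 at the 2-cell stage and 4.001 and 2.75 in sperm (log2 difference 4.68, SE 0.60, limma adjusted p = 0.00664). RIT4M.1450 had 3.91 and 2.12 RPKM in oocytes, 75.8 and 92.7 at the 1-cell stage, 74.7 and 82.9 at the 2-cell stage and 5.39 and 1.39 in sperm (4.44, SE 0.50, limma adjusted p = 0.00624). In RIT6P.1450 the values were 6.35 and 7.34 in oocytes, 67.1 and 303 at the 1-cell stage, 66.4 and 301 at the 2-cell stage and 0.798 and 0.0208 in sperm (4.20, SE 0.86, limma adjusted p = 0.0157). All 3 were at least 9 times higher in every embryo library than in either gamete. The 8 markers of later, zygotic transcription summed to 7.94 to 21.4 RPKM in embryos, 1.81 and 1.82 in oocytes and 0.538 and 5.24 in sperm, and the part of older embryos in these levels was not tested.

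These calls depended on how the libraries were scaled. Median-of-ratios scaling moved the median difference of all tested entries from 0.35 to 0.02 log2, and 20 members were then higher and 19 lower in place of 49 and 12. With quantile normalization 26 were higher and 10 lower, and with no filter on low values 30 and 7. The median difference of all entries in the fit was then 0.05 and 0.03 log2. Shares called over all entries are not given for the other settings, so these counts are not read as particular to RIT loci. Calls ended for RIT1P.1142 and RIT3P.789 in each of these 3 settings, and for RIT6P.1450 without the filter. Under all 8 settings that kept every library 16 loci stayed higher and 7 lower, RIT3P.171, RIT5P.1534, RIT2P.928 and RIT4M.1450 among them. Without 1-cell library 2, 40 calls were left, and those of RIT1P.1142 and RIT3P.789 ended. No call was left when either oocyte library was removed, and the cause was not tested.

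Between the 2 embryo stages none of the 232 loci was called by limma, and 2 had an unadjusted p under 0.05. Of all 11935 tested entries 2 were called (0.0168%). Chosen after their values were seen, these loci were RIT4P.1642, with 95.6 and 85.7 RPKM in 1-cell and 51.9 and 38.0 at the 2-cell stage (log2 difference -1.01, limma adjusted p = 1), and RIT3M.1313, with 0.553 and 0.0649 RPKM in 1-cell and 1.68 and 0.836 in 2-cell embryos. Over the 90 loci that passed in both stages the median difference was -0.01 log2, with 45 above 0. Replicate differences of the 2 embryo stages correlated at 0.877 over all tested entries, and this fit did not pair libraries by number. The lack of calls therefore cannot show that no locus changed between the stages.

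There were 7 loci that passed in 2-cell embryos alone. RIT3P.1226 had 9.92 and 61.5 RPKM in 1-cell and 21.1 and 120.4 at the 2-cell stage, against 4.95 and 10.4 in oocytes and 2.84 and 2.10 in sperm. RIT2P.1218 had 8.93 and 47.4 RPKM in 1-cell and 18.1 and 61.7 in 2-cell embryos. In both the 2 stages overlapped, though within each library number the 2-cell value was higher, a direction that the choice of these loci favours. All 7 were near the passing level in at least 1 of the 1-cell libraries, with 6.15 to 9.92 RPKM in the lower one. None of them was absent from 1-cell embryos.

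The 24 loci highest in oocytes were less distinct than the sperm loci. Their oocyte means ran from 10.8 to 286 RPKM with a median of 27.5, were a median of 1.80 times the next group's, and at most 7.95 times. Both oocyte libraries lay above the other 6 in 16, a count that was not made for the other entries. The locus with the highest oocyte mean, RIT2M.216, had 219.7 and 351 RPKM in oocytes, 105 and 68.0 at the 1-cell stage, 80.8 and 51.5 at the 2-cell stage and 85.3 and 31.5 in sperm. Its oocyte libraries lay above all others, and the remaining groups overlapped. The nearest named genes were fubl-1 (distance 1.09), the chaperonin subunit gene cct-2 (1.20) and the N-myristoyltransferase gene nmt-1 (1.27).

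RIT1M.985 had 270.5 and 213 RPKM in oocytes, 72.4 and 60.3 at the 1-cell stage, 75.1 and 84.7 at the 2-cell stage and 39.0 and 13.4 in sperm. RIT4P.1642 had 128 and 140.2 RPKM in oocytes, 95.6 and 85.7 at the 1-cell stage, 51.9 and 38.0 at the 2-cell stage and 15.9 and 7.77 in sperm, with no overlap between any of the 4 groups. RIT6M.336 had 134 and 117 RPKM in oocytes, 30.4 and 68.6 at the 1-cell stage, 38.4 and 91.1 at the 2-cell stage and 15.7 and 29.6 in sperm.

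In a set of oocyte loci the level at the 1-cell stage was far below that in oocytes. These loci were grouped as highest in oocytes and did not pass in 1-cell embryos, so their differences are a description. None of the 24 loci highest in oocytes had a difference above 0, and 11 were called lower. Of all tested entries 5.92% were called lower. The grouping by the oocyte mean favours this direction, so the count is not read against that share. RIT3M.942 had 92.1 and 66.1 RPKM in oocytes, 5.16 and 5.19 at the 1-cell stage, 3.85 and 10.2 at the 2-cell stage and 24.5 and 6.67 in sperm (log2 difference from oocyte to 1-cell embryo -3.68, SE 0.63, limma adjusted p = 0.00984). RIT4P.1529 had 30.4 and 21.8 RPKM in oocytes, 1.21 and 1.47 at the 1-cell stage, 0.930 and 3.12 at the 2-cell stage and 6.38 and 2.50 in sperm (-3.52, SE 0.50, limma adjusted p = 0.00754). RIT4P.1536 had 73.2 and 55.5 RPKM in oocytes and 5.22 and 6.43 at the 1-cell stage (-3.25, limma adjusted p = 0.0130). In each the embryo libraries lay below both oocyte libraries.

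RIT4P.1529, RIT4P.1543 and RIT3M.942 kept near-constant ratios to one another over the 8 libraries (SD 0.23 to 0.24 log2), and RIT4P.1543 had 26.3 and 17.2 RPKM in oocytes and 1.33 and 1.76 in 1-cell embryos. The entry with the most constant ratio to RIT3M.942 was a named gene, maph-1.3 (ratio 0.475, SD 0.21 log2). The same gene had the most constant ratio to RIT4P.1536 (0.479, SD 0.23 log2). The decrease was largest in RIT5P.935, which was present in both gametes: 43.2 and 37.3 RPKM in oocytes, 2.71 and 0.689 at the 1-cell stage, 1.88 and 1.0999 at the 2-cell stage and 21.9 and 11.003 in sperm (-4.04, SE 0.50, limma adjusted p = 0.00656). The calls of RIT3M.942, RIT4P.1529, RIT4P.1543 and RIT5P.935 held in all 8 settings that kept every library, and that of RIT4P.1536 ended without the filter on low values. None of these loci passed in 1-cell embryos, so their choice favours this direction in every setting.

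In sperm and oocytes together 20 of the 232 passed (8.62%), against 3654 of the 7424 other entries (49.2%), and 14 of these also passed at both embryo stages. In limma's comparison of sperm with oocytes 115 loci were higher in sperm and 49 lower (70.7%, against 61.3% of all tested entries, of which 36.7% were higher and 24.6% lower), but the rule fixes most of these directions. Among the 20 loci that passed in both, 2 were higher and 6 lower (40%), near the share among the 3654 other entries, of which 229 were higher and 1414 lower (44.96%). The 2 higher ones, chosen after their values were seen, were RIT5M.2434 (380.1 and 144 RPKM in sperm, 23.2 and 17.1 in oocytes; log2 difference 3.49, SE 0.58, limma adjusted p = 0.00107) and RIT2P.88 (147 and 367 in sperm, 24.1 and 25.8 in oocytes; 3.17, SE 0.45, limma adjusted p = 4.47e-04). With quantile normalization 112 members were higher and 95 lower, and the median difference of all tested entries moved from 0.16 to -0.65 log2.

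Of the loci lower in sperm, RIT2P.1435, RIT3P.301 and RIT2M.267 had the largest differences from oocytes. RIT2P.1435 had 39.2 and 28.9 RPKM in oocytes, 29.6 and 35.9 at the 1-cell stage, 32.3 and 27.3 at the 2-cell stage and 0.808 and 0.0795 in sperm (-4.63, SE 0.38, limma adjusted p = 2.02e-05). Its oocyte and embryo libraries overlapped and both sperm libraries lay far below. RIT3P.301 had 47.7 and 34.4 RPKM in oocytes, 93.4 and 96.1 at the 1-cell stage and 1.46 and 0.359 in sperm (-4.50), and RIT2M.267 had 39.0 and 38.1, 22.0 and 38.1, and 1.57 and 0.659 RPKM (-4.26). Set against 1-cell embryos, 117 loci were higher in sperm and 88 lower (88.4%, against 68.5% of all tested entries, of which 35.3% were higher and 33.2% lower). Here too the rule fixes most of these directions. Of the 110 loci that passed in sperm alone, 109 were higher in sperm, as were 1763 of the 1814 other entries that passed in this way. Of the 41 that passed in both embryo stages but not in oocytes, 37 were lower in sperm and 1 was higher. Among the 505 other entries of that kind 289 were lower and 27 higher. Of the 18 loci that passed in both sperm and 1-cell embryos, 3 were higher and 8 lower (61.1%), near the share among 3610 other entries that passed in both, of which 272 were higher and 1874 lower (59.4%). Over all 232 loci, the largest decreases from 1-cell embryos to sperm were those of RIT6P.1450 (-6.73), RIT3P.301 (-5.71) and RIT2P.1531 (-5.59), and the largest increases those of RIT4P.1139 (10.59), RIT4P.910 (9.22) and RIT2M.1165 (8.01). Without sperm library 1 or 2 there were 78 and 63 calls against oocytes and 109 and 111 against 1-cell embryos, but only 153 of the 232 loci were then tested, as the other 79 reach 1 RPKM in the sperm libraries alone.

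A few loci were nearly even across the study. RIT1P.228 had 13.6 and 15.9 RPKM in oocytes, 24.1 and 22.5 at the 1-cell stage, 22.3 and 21.0 at the 2-cell stage and 15.9 and 16.9 in sperm, a 1.58-fold range of group means. RIT1P.1364 and RIT4M.585 had ranges of 1.71 and 1.72, yet their embryo libraries differed by number: RIT1P.1364 had 15.3 and 2.44 RPKM in 1-cell embryos and RIT4M.585 had 19.1 and 4.76. None of these 3 was called in any comparison.

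Replicate libraries of embryos and sperm differed more for RIT loci than for the rest of the table, and in 1 direction. Among loci that passed in the group, the median of log2 replicate 2 minus replicate 1 was 0.67 at the 1-cell stage (93 loci), 0.57 at the 2-cell stage (100 loci) and 0.83 in sperm (134 loci), against -0.08, -0.06 and -0.19 for other entries. In oocytes it was -0.0009 for 72 RIT loci and 0.11 for the others. Replicate 2 was the higher one in 71.0%, 72.0% and 82.1% of the RIT loci of the first 3 of these groups, and in 46.2%, 47.4% and 41.7% of the other entries. The shift in embryos was largest for abundant loci, with 1.68 for the 23 RIT loci of at least 100 RPKM in 1-cell embryos against -0.01 for 1956 other entries of that level. Replicates within a group have no label that sets them apart, and what separated the libraries is not stated.

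Replicate 2 exceeded replicate 1 by more than 2 log2 at both embryo stages in 14 RIT loci (6.03%) and in 5 of the 7424 other entries (0.0673%). The 14 include RIT4P.1164, RIT1M.394, RIT2P.245, RIT1P.1246, RIT1P.1152, RIT3P.1226 and RIT6P.1450 with the values given above. RIT5P.616 was the most uneven of them, with 8.77 and 174 RPKM at the 1-cell stage and 10.3 and 109 at the 2-cell stage, against 2.23 and 1.46 in oocytes. Among the 5 other entries F23A7.8 had 1265 and 19018 RPKM in 1-cell embryos and ostf-4 (T07A5.5) had 301 and 2287. The opposite gap, of more than 1 log2 at both stages, occurred in 17 RIT loci (7.33%) and in 7.04% of the others, whereas the gap in favour of replicate 2 of that size occurred in 31 (13.4%) and 5.02%.

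**Figure D4:**
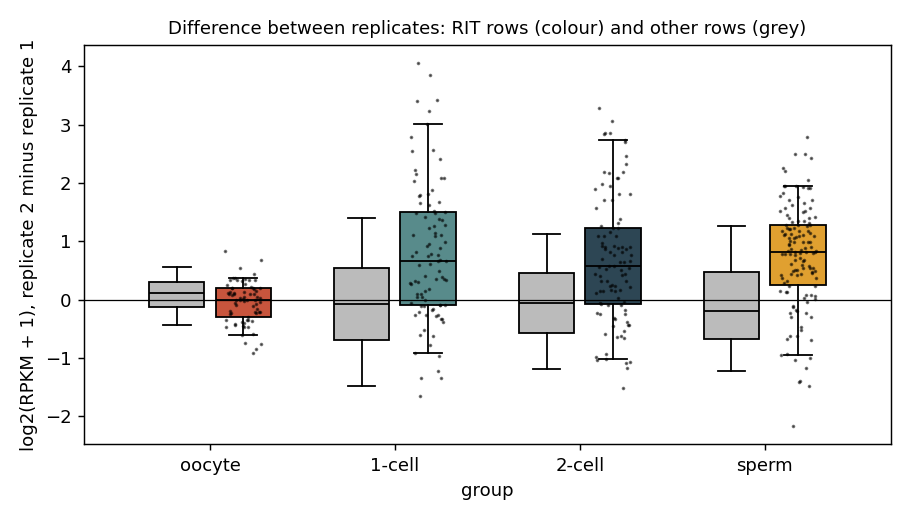
Difference of log2(RPKM + 1) between replicate 2 and replicate 1 for entries with at least 10 RPKM in both libraries of the group; boxes span the quartiles with the median as a line, whiskers the 5th to 95th percentile, grey for other entries and colour with points for RIT loci. Grey boxes centre near 0 in all groups, and the RIT boxes of the 1-cell stage, the 2-cell stage and sperm have medians of 0.67, 0.57 and 0.83.

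After the letters RIT each identifier has a digit from 1 to 6, a letter M or P, and a number, and no source used here says what these mean. Expression differed between the digits. Of the RIT entries with digit 1, 57 of 341 passed (16.7%), and the share was 9.31% for digit 2, 13.3% for digit 3, 11.01% for digit 4, 5.76% for digit 5 and 1.89% for digit 6. Only 7 of the 370 entries with digit 6 passed, 5 of them highest in sperm, and digit 5 had the most entries, with 833. The letters did not differ in this way, with 8.64% for M and 8.90% for P. Loci highest in sperm were 22 of 57 for digit 1, 22 of 38 for digit 2 and 27 of 47 for digit 4.

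**Figure D5:**
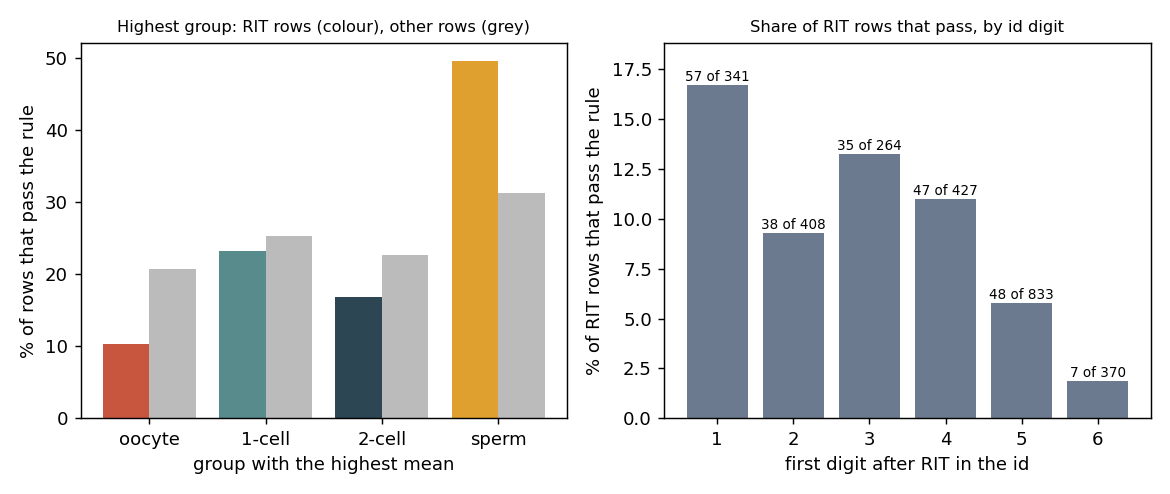
Left, the share of entries passing the level whose mean was highest in each group, for 232 RIT loci (colour) and 7424 other entries (grey), in percent; right, the share of RIT entries that pass, by the digit after RIT. Sperm takes 49.6% of the RIT loci and 31.2% of the others, and the passing share is 16.7% for digit 1 and 1.89% for digit 6.

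At the passing level itself, RIT4P.1856 (10.05 and 30.8 RPKM in sperm) and RIT2M.66 (10.2 and 20.1 in sperm) were just inside. RIT5P.2434 (16.3 and 9.97 RPKM in 2-cell embryos) and RIT6M.1513 (21.7 and 9.82 in sperm) were just outside. Of the 2411 RIT entries that did not pass, 476 had at least 1 RPKM in both libraries of a group, and 439 of the 2643 were listed at 0 in all 8 libraries.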

How the data were processed

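The measurements are RPKM values as deposited, computed by the authors, 1 column for each of 8 libraries. The submitters' processing notes name the aligner BWA without a version, and the genome build, annotation, counting tool, gene lengths and depth are not given in the sources used here. The depth behind each value is therefore unknown and no counting intervals are given. The library protocol in the labels describes no strand marking, so overlapping or antisense genes could share reads with a RIT locus. Values of 0 were fewer in the oocyte columns, at 20.02% and 22.9% of RIT entries against 40.3% to 61.3% in the other libraries, and this enters every comparison with oocytes. Lengths of RIT loci are not given, so no check of the differences against length was made.

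Names were matched to annotation tables of WBcel235 (18800 of 19131 non-RIT identifiers and 0 RIT identifiers matched). Groups follow the sample titles. Differences of log2(RPKM + 1) were tested two-sided with limma 3.58.1 (R 4.3.3), in a model with a mean for each of 4 groups and a variance trend. Tested were 11935 entries, all 232 members among them, that reached 1 RPKM in 2 or more libraries. Benjamini-Hochberg adjustment covered all tested entries within each of 4 comparisons. This scale understates changes near 0. A call needs a log2 difference of at least 1 in size and an adjusted p under 0.05. The fit was tested on simulated data. SD over 2 libraries is not printed beside their values.

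Loci were named by a rule: in each group the 6 with the highest mean there, in each comparison and direction the 3 called loci with the largest difference and at least 10 RPKM in the higher group, the 3 most even and those next to the threshold. Others say so, or illustrate a count. The members, lists and tests were chosen with earlier results of these data known. Alternatives were pseudocounts of 0.1 and 5, no filter, 3 scalings, fits of only the groups compared, a replicate block and leaving out each library.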

Additional observations from a re-analysis of the deposited data

How the results depend on the processing

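A lower or higher level changed the number of RIT loci to 370 at 5 RPKM and 135 at 20 RPKM. It was 232 at 10 RPKM, 224 with libraries scaled to a common sum, 244 with median-of-ratios scaling, and 234 to 293 when a library was left out. Loci highest in oocytes numbered 21 to 25, in 1-cell embryos 32 to 68, in 2-cell embryos 28 to 62 and in sperm 114 to 116 across the libraries left out, so the split between the embryo stages rested on single libraries: without 1-cell library 2 it was 32 and 62, and without 2-cell library 2 it was 68 and 28. The 61 calls between 1-cell embryos and oocytes became 37 with no filter, 39 with median-of-ratios scaling and 36 with quantile normalization, and 0 to 71 when a library was left out (0 without either oocyte library, 40 without 1-cell library 2). When a library was left out, the 164 calls of sperm against oocytes ranged from 63 to 168 and the 205 against 1-cell embryos from 109 to 207. Both were lowest without a sperm library, where 153 of the 232 loci were tested. The other settings gave 152 to 207 and 193 to 210 calls. Shares called over all entries are not given for these alternatives. A lone library is assumed to vary like the other groups. Between the embryo stages the count was 0 in all settings run. Of 68 calls of named loci 44 held in all planned settings that gave a value, and none changed sign. The choice of named loci by group level or by largest difference favours an unchanged sign. Chosen after seeing the data, leaving out both embryo libraries numbered 2 gave 50 calls between 1-cell embryos and oocytes, and leaving out those numbered 1 gave 69.

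Libraries share only a number between groups. With the replicate block the calls were 79 for 1-cell embryos against oocytes, 0 between embryo stages, 169 for sperm against oocytes and 207 for sperm against 1-cell embryos. Over all tested entries the replicate differences correlated at 0.877 between the embryo stages and at -0.170 to 0.0905 in the other group pairs. The block was a single shift shared by all groups, and no fit paired the embryo stages alone. The 0 calls between these stages therefore cannot show what a fit with that pairing would give. With the oocyte numbers crossed, a pairing added after seeing the data, the count for 1-cell embryos against oocytes was 85.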

Other observations

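RIT entries below the level of the 232 loci were also most often highest in sperm: of 476 with at least 1 RPKM in both libraries of a group, sperm was highest for 291, the 2-cell stage for 73, the 1-cell stage for 63 and the oocyte for 49. Another 134 entries reached 10 RPKM in some library without passing, and the highest library was sperm 2 for 61 of them and 1-cell embryo 2 for 25. RIT5M.584 had 1.28 and 75.1 RPKM in the sperm libraries and under 0.05 in the other 6. RIT5M.1660 had 6.49 and 67.5 RPKM in 1-cell embryos and 7.604 and 38.8 in 2-cell embryos, while RIT5P.1385 had the opposite order, with 54.1 and 4.17 RPKM in 1-cell and 43.4 and 3.61 in 2-cell embryos. No cause of these differences was tested.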
